A study of Danio rerio with 32 samples.

Results

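The autophagy machinery was followed across 10 groups of whole zebrafish larvae in 2 experiments. A gene was taken as a member if its symbol named an ATG protein, an LC3 or GABARAP protein, a subunit of the kinase complexes that start an autophagosome, a cargo receptor or a transcription factor of the pathway. The rule matched 41 genes of the 32520 in the count files. All 41 were expressed above the filter on low counts in experiment 1 and 36 in experiment 2, where tfe3b, atg16l2, ulk1a, atg4db and BNIP3 failed it. The symbols ulk1b, tfe3a, bnip3la and bnip3lb matched no row. Genes listed as ULK1, TFE3 and BNIP3L (2 genes) carry related names, so their values are given beside the members without being counted among them. Many symbols stand in capitals, the form that the table of gene names gives.

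Autophagy is the route by which a cell encloses part of its own cytoplasm in a double membrane, the autophagosome, and delivers it to the lysosome for breakdown, so that amino acids and lipids can be used again. A kinase complex that responds to nutrient supply starts the process, a lipid kinase complex marks the membrane, and a pair of ubiquitin-like conjugation systems attaches LC3 and GABARAP proteins to it, where they bind cargo receptors. Transcripts of this machinery respond to fasting in many tissues through factors such as TFEB, while most of the control of autophagy acts on the proteins. RNA levels therefore do not measure autophagic flux, which was not assayed here.

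The series asks how lines of zebrafish that carry mutations in pllp cope with a diet low in protein; pllp encodes plasmolipin, a membrane protein of the endosomal system of gut epithelium. All groups were whole larvae at 20 days post fertilization, on 1 of 2 diets that differ in protein, High Protein (HP) and Low Protein (LP). Experiment 1 had 18 libraries, with 3 in each of EK on HP, EK on LP, pllp pd1116 on HP, pllp pd1116 on LP, pllp pd1245 on HP and pllp pd1245 on LP. Experiment 2 had 14 libraries, with 3 of EK on HP, 4 of EK on LP, 3 of pllp pd1245 on HP and 4 of pllp pd1245 on LP. EK is the line without a named pllp allele. The series text describes pd1245 in experiment 1 as a new mutation that lowers survival under restriction, pd1116 as an older allele whose line has adapted, and the pd1245 fish of experiment 2 as adapted. How many larvae or clutches went into a library is not in the labels, so p-values measure only the spread between these libraries, which may in part be technical. In RNA from whole larvae, fewer cells of a type and less RNA per cell cannot be told apart.

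Experiment 1 libraries held 19838912 to 29147958 counts in genes, and experiment 2 libraries 3713048 (EK on HP, replicate 2) to 12929536. Members took 0.123 to 0.146% of the counts in a library of experiment 1 and 0.0738 to 0.132% in experiment 2. Replicate 3 of pd1245 on LP in experiment 1 stood apart: ribosomal protein genes held 14.8% of its counts, against 7.00 to 9.29% in the other 17 libraries, and malat1 1.17%, against 0.583% at most. In experiment 2, replicate 2 of EK on LP was the highest of its 4 libraries for 26 of 36 members. It was picked out by the members' own values, without the share over all genes. Leaving it out had to lower most members in EK on LP, so values without it are no independent check. Values without these libraries are given beside the member calls that changed, and beside the uncalled values that lean on them. pllp itself was used as a check of the labels, which it could not give for pd1245 on HP in experiment 1. It fell in pd1116 against EK, by 0.81 ± 0.17 (SE) on the log2 scale on HP and by 1.08 ± 0.17 on LP, and in pd1245 on LP by 1.43 ± 0.17. On HP its log2 difference between pd1245 and EK in experiment 1 was -0.32 ± 0.17 (SE, adjusted p = 0.343), and adapted pd1245 differed from EK by -2.30 ± 0.19 (SE, adjusted p = 1.42e-06) on HP and -2.16 ± 0.16 (SE, adjusted p = 1.56e-07) on LP. The level of pllp also differed between diets in pd1245 of experiment 1, by -0.77 ± 0.18 (SE, adjusted p = 0.00747) on LP.

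In EK larvae the LP diet left no mark on the machinery that passed the test. In the pllp lines a small set of genes rose on LP. The LC3 gene map1lc3cl and ATG7, the enzyme that activates both conjugation systems, rose in pd1116 and pd1245; BNIP3, a receptor for mitochondria, had the largest rise in pd1245; and map1lc3cl and ATG14 had the largest in adapted pd1245, where ATG7 was not called. A member is called here when the adjusted p of edgeR's quasi-likelihood test across all genes was under 0.05, without a fold minimum. Counts at an unadjusted p under 0.05 are given without the share of all genes, so they are not read as results about the members. Levels are in CPM, counts scaled to the size of the library and not to transcript length, and differences are fitted log2 fold changes. In experiment 1, 0 of 41 members were called between LP and HP in EK, where 0.154% of all genes were (0.0484% higher, 0.106% lower). DESeq2 also called 0, and 0 members had an unadjusted p under 0.05. Log2 differences ranged from -0.26 (ulk1a) to 0.37 (ATG12), with a median of 0.004 beside -0.005 over all genes tested. In pd1116, 2 members rose and 0 fell, beside 6.79% of all genes called (2.76% higher, 4.04% lower), with a median log2 difference of 0.057 beside 0.005. In pd1245, 6 rose and 1 fell, or 17.1% of the members beside 19.1% of all genes (9.33% higher, 9.78% lower), with a median log2 difference of 0.131 beside 0.006, which was 0.068 without the outlying library. The share of members called in either line was no larger than that of all genes. Libraries of the 2 diets did not overlap for 2 of 41 members in EK (17.3% of all genes), 11 in pd1116 (35% of all genes) and 9 in pd1245 (31% of all genes).

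In experiment 1, members passed the test against EK on LP, while on HP 0 did. More of all genes were called on LP too, so this contrast is not particular to the members. On neither diet was the share of members called larger than that of all genes. On HP, 0 members were called in pd1116 (2.9% of all genes, 1.27% higher and 1.63% lower; 1 member at unadjusted p under 0.05, 0 by DESeq2) and 0 in pd1245 (4.16% of all genes, 1.63% higher and 2.54% lower; 3 members at unadjusted p under 0.05, 1 by DESeq2). On LP, 2 members were higher in pd1116 than in EK, beside 6.68% of all genes called (2.82% higher, 3.86% lower). In pd1245 on LP, 8 were higher and 1 was lower than in EK, or 22% of the members beside 31.8% of all genes (16% higher, 15.8% lower). These comparisons share the EK libraries with the diet comparison in EK, and those on LP share the LP libraries of each line with its diet comparison. Between the alleles, 2 members were higher in pd1245 than in pd1116 on HP (11.9% of all genes called, 5.91% higher and 5.96% lower). On LP, 4 were higher and 1 was lower (20.2% of all genes, 10.3% higher and 9.89% lower).

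Experiment 2 had most members above 0 on LP in adapted pd1245. In EK, 0 of the 36 members tested were called between LP and HP (0.078% of all genes, 0.018% higher and 0.06% lower), 3 had an unadjusted p under 0.05, DESeq2 called 0, 24 of 36 had a log2 difference above 0, and the median was 0.135 beside 0 over all genes. Without replicate 2 of EK on LP, 20 of 36 were above 0 and that median was 0.038, a fall that the choice of that library made likely. In adapted pd1245, 4 members rose on LP and 0 fell, or 11.1% of the members beside 1.88% of all genes (1.1% higher, 0.78% lower). Of the 36, 33 had a log2 difference above 0, and the median was 0.31 beside 0.01 over all genes. Libraries of the 2 diets did not overlap for 15 of 36 members, or 41.7%, beside 21.7% of all genes. Whether the members stand apart from other genes in this was not tested. On HP, 1 member was lower in adapted pd1245 than in EK (1.44% of all genes called, 0.54% higher and 0.9% lower) and 26 of 36 had a log2 difference below 0, with a median of -0.213 beside -0.005. On LP, 0 members were called against EK (2.36% of all genes, 0.924% higher and 1.44% lower), 2 had an unadjusted p under 0.05, DESeq2 called 0, and the median was 0.013 (0.121 without replicate 2 of EK on LP). Both diet and line comparisons of adapted pd1245 use its HP libraries. The HP comparison with EK also rests on replicate 2 of EK on HP, the shallowest library. There malat1 held 1.905% of the counts, against 1.163 and 0.957% in the rest of its group. The HP median of the members is not given without that library.

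**Figure D1:**
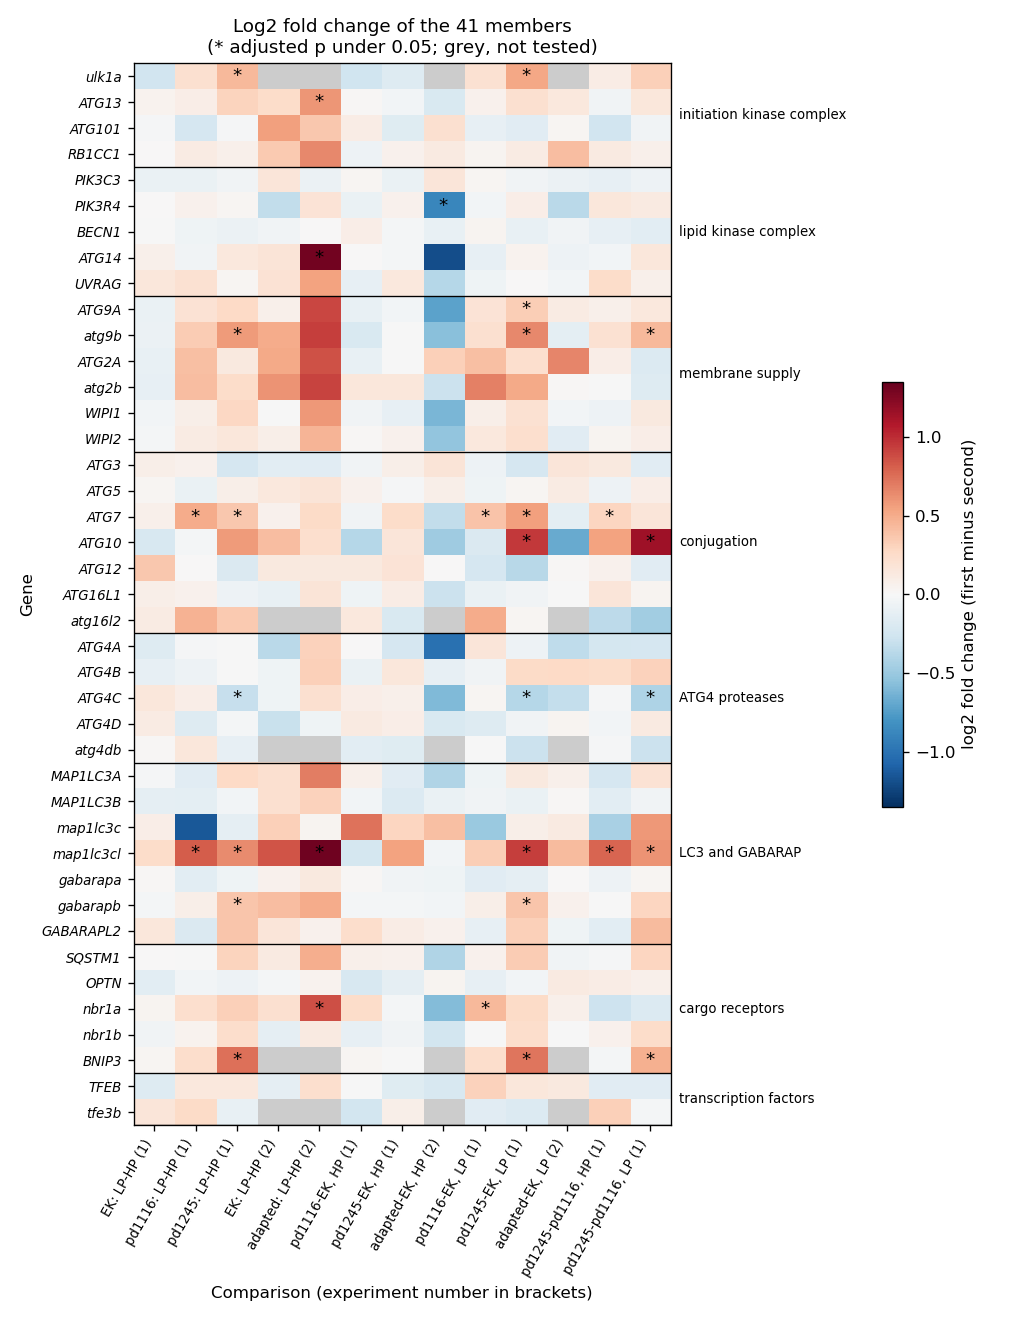
Log2 fold change of the 41 members (rows, grouped by role) in 13 comparisons (columns, with the experiment number in brackets); red is higher in the group named first, blue lower, grey not tested, and an asterisk marks an adjusted p under 0.05 in edgeR. The EK diet columns hold no asterisk, and the row of map1lc3cl holds the most.

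Across the experiments, 10 members were called at least once in experiment 1 and 5 in experiment 2. The 2 in both, map1lc3cl and nbr1a, make up 20% of the first list and 40% of the second. The remaining 28 were called in neither experiment, among them the receptor SQSTM1, the lipid kinase PIK3C3 with its partner BECN1, the transcription factors TFEB and tfe3b, and all of ATG3, ATG5, ATG12 and ATG16L1.

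The LC3 and GABARAP proteins coat the autophagosome and hold the cargo receptors; 7 genes encode them here. map1lc3cl, an LC3C-like gene, was higher on LP in pd1116, in pd1245 and in adapted pd1245. In EK of experiment 1, map1lc3cl stood at 12.7, 14.1 and 13.9 CPM on HP and 17.3, 14.1 and 17 CPM on LP. Its pd1116 libraries held 10.8, 11.8 and 11.9 CPM on HP and 18.9, 18.8 and 22.9 CPM on LP. Those of pd1245 held 18.5, 25.5 and 15.5 CPM on HP and 25.5, 31.1 and 36.03 CPM on LP. Neither mutant line overlapped between diets, and all pd1245 libraries on LP lay above all other libraries of experiment 1, although replicate 2 of pd1245 on HP came close to the lowest of them. On LP it rose 1.76-fold in pd1116, a log2 change of 0.82 ± 0.16 (SE, adjusted p = 0.0046), and 1.56-fold in pd1245, a log2 change of 0.64 ± 0.15 (SE, adjusted p = 0.00948). In EK the log2 difference was 0.25 ± 0.16 (SE, adjusted p = 0.786), with an approximate 95% interval of -0.06 to 0.56. Without replicate 3 of pd1245 on LP, its log2 change in pd1245 was 0.52 (adjusted p = 0.034). The call in pd1116 held under all 23 alternative settings, and that in pd1245 was lost in 2 of 23, with an adjusted p of up to 0.151.

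Against EK on LP, map1lc3cl was higher in pd1245 by 0.94 ± 0.15 (SE, adjusted p = 0.000317) on the log2 scale, and in pd1116 its log2 difference was 0.33 ± 0.16 (SE, adjusted p = 0.231). On HP it was higher in pd1245 than in pd1116 by 0.78 ± 0.16 (SE, adjusted p = 0.00301), and on LP by 0.61 ± 0.15 (SE, adjusted p = 0.0115). Without replicate 3 of pd1245 on LP, its excess there over EK was 0.81 (adjusted p = 0.000927) and over pd1116 0.48 (adjusted p = 0.0463). The HP difference between pd1245 and EK was 0.54 ± 0.16 (SE, adjusted p = 0.0581) and did not pass. In experiment 2, EK libraries held 5.90, 7.16 and 4.57 CPM of map1lc3cl on HP and 5.92, 18.1, 7.36 and 9.35 CPM on LP. Adapted pd1245 libraries held 4.20, 8.43 and 3.93 CPM on HP and 10.6, 17.1, 13.6 and 13.6 CPM on LP. All adapted pd1245 libraries on LP were above those on HP, while the EK groups overlapped and replicate 2 of EK on LP was the highest library of the experiment. The rise on LP in adapted pd1245 was 1.31 ± 0.33 (SE, adjusted p = 0.0486), a call lost in 8 of 19 alternatives, with an adjusted p of up to 0.251. In EK the log2 difference was 0.85 ± 0.35 (SE, adjusted p = 0.36), or 0.40 ± 0.29 (SE, adjusted p = 0.734) without replicate 2 of EK on LP. The difference between those diet effects was 0.47 ± 0.48 (SE, adjusted p = 0.878) in experiment 2, and 0.91 ± 0.38 (SE, adjusted p = 0.72) without it.

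gabarapb, which had the most reads of all members in both experiments, is a zebrafish homolog of GABARAP, which acts late in autophagosome closure. EK libraries of experiment 1 held 139, 122 and 133 CPM of gabarapb on HP and 128, 129 and 129 CPM on LP. In pd1116 it was at 129, 129 and 129 CPM on HP and at 125, 143 and 141 CPM on LP. In pd1245 it was at 108, 145 and 131 CPM on HP and at 139, 159.9 and 200.5 CPM on LP. In pd1245 the diets overlapped and replicate 3 on LP was the highest library by a wide margin. The rise on LP in pd1245 was 0.38 ± 0.12 (SE, adjusted p = 0.035), and the difference from EK on LP was 0.37 ± 0.12 (SE, adjusted p = 0.0234). Without that replicate neither passed, at 0.22 (adjusted p = 0.169) and 0.21 (adjusted p = 0.129). EK libraries of experiment 2 had gabarapb at 240.2, 232 and 212 CPM on HP and at 286, 397, 294 and 239 CPM on LP. In adapted pd1245 it was at 219.9, 244 and 204 CPM on HP and at 321, 344, 278 and 319.8 CPM on LP. Adapted pd1245 did not overlap between diets, with a log2 difference of 0.50 ± 0.15 (SE, adjusted p = 0.08), and EK had a log2 difference of 0.41 ± 0.15 (SE, adjusted p = 0.286), or 0.26 ± 0.13 (SE, adjusted p = 0.618) without replicate 2 on LP.

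The other 5 genes of the family were called in no comparison. MAP1LC3A, MAP1LC3B and gabarapa encode homologs of LC3A, LC3B and GABARAP, and GABARAPL2 a homolog of the Golgi-linked GATE-16. In adapted pd1245, MAP1LC3A stood at 28.8, 42.4 and 29.7 CPM on HP and 48.3, 60.2, 45.8 and 62.8 CPM on LP. Those groups did not overlap, with a log2 difference of 0.69 ± 0.19 (SE, adjusted p = 0.0651). GABARAPL2 stood at 23.96, 24.7 and 43.9 CPM in pd1245 on LP, where the third library was the outlying one, and at 19.9 to 27.4 CPM in the other 15. map1lc3c, with a mean of 0.530 CPM in experiment 1, had too few reads to weigh: its log2 difference in pd1116 was -1.14 ± 0.43 (SE, adjusted p = 0.12). How alike in sequence map1lc3c and map1lc3cl or gabarapa and gabarapb are, and how the counting split reads between them, were not tested. In the experiment with adapted pd1245, map1lc3c and map1lc3cl each had a fractional count in 0 of 14 libraries. For gabarapa it was 3 of 14 and for gabarapb 8 of 14.

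**Figure D2:**
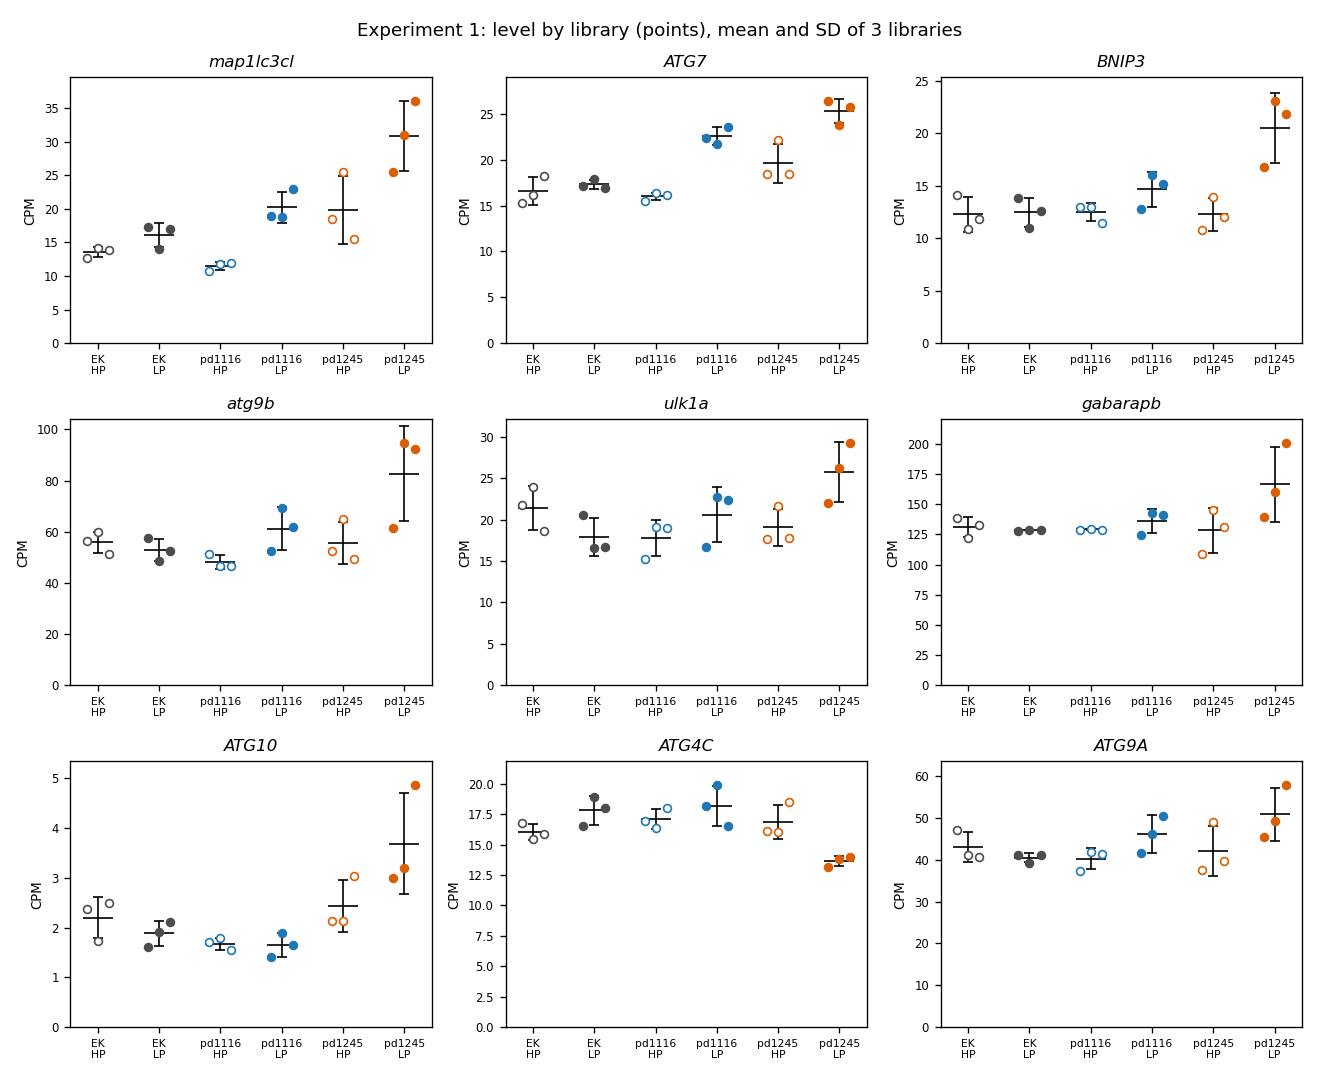
Level in CPM (counts scaled to library size) of 9 members in each library of experiment 1; open points are HP, filled points LP, and bars the mean and SD of 3 libraries. map1lc3cl and ATG7 are higher on LP than on HP in both pllp lines, BNIP3 is highest in pd1245 on LP, and ATG4C is lowest there.

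In the conjugation systems, ATG7 is the E1-like enzyme that activates ATG12 and the LC3 family, and ATG10 and ATG3 are the E2-like enzymes that follow it. On HP the EK libraries of experiment 1 had ATG7 at 15.3, 16.1 and 18.2 CPM, and on LP at 17.1, 17.9 and 16.9 CPM. The pd1116 values were 15.5, 16.3 and 16.2 CPM on HP and 22.4, 21.8 and 23.6 CPM on LP. The pd1245 values were 18.4, 22.1 and 18.4 CPM on HP and 26.4, 23.8 and 25.8 CPM on LP. Diets did not overlap in either pllp line, and the 6 LP libraries of these lines were all above the EK libraries. ATG7 rose on LP by 0.50 ± 0.09 (SE, adjusted p = 0.00388) on the log2 scale in pd1116 and by 0.37 ± 0.09 (SE, adjusted p = 0.0124) in pd1245, and the EK difference was 0.06 ± 0.09 (SE, adjusted p = 0.952). On LP it exceeded EK by 0.39 ± 0.09 (SE, adjusted p = 0.0172) in pd1116 and by 0.55 ± 0.09 (SE, adjusted p = 0.00039) in pd1245. On HP it was higher in pd1245 than in pd1116 by 0.29 ± 0.09 (SE, adjusted p = 0.048), a call lost in 18 of 23 alternatives. ATG7 in EK of experiment 2 was at 10.5, 9.23 and 7.13 CPM on HP and 9.37, 9.40, 8.16 and 10.1 CPM on LP. The adapted pd1245 values were 6.20, 6.92 and 8.13 CPM on HP and 6.68, 9.56, 7.42 and 10.3 CPM on LP. These groups overlapped, and the log2 difference between diets was 0.26 ± 0.18 (SE, adjusted p = 0.447) in adapted pd1245.

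ATG10 was among the genes with few reads. In EK of experiment 1, ATG10 stood at 2.38, 1.73 and 2.50 CPM on HP and 1.61, 1.92 and 2.12 CPM on LP. Its pd1116 libraries held 1.70, 1.79 and 1.55 CPM on HP and 1.40, 1.88 and 1.64 CPM on LP. Those of pd1245 held 2.14, 2.13 and 3.03 CPM on HP and 3.00, 3.20 and 4.86 CPM on LP. On LP every pd1245 library was above every EK and pd1116 library, and replicate 3 was the highest. It was higher in pd1245 on LP than in EK by 0.95 ± 0.22 (SE, adjusted p = 0.0033) and than in pd1116 by 1.15 ± 0.22 (SE, adjusted p = 0.00225). Without replicate 3 those differences were 0.72 (adjusted p = 0.0162) and 0.91 (adjusted p = 0.00923). Between diets in pd1245 its log2 difference was 0.57 ± 0.21 (SE, adjusted p = 0.064), or 0.34 ± 0.20 (SE, adjusted p = 0.292) without replicate 3. In experiment 2 it stood at 2.71, 3.00, 1.61 and 2.03 CPM in EK on LP and 1.37, 1.65, 1.64 and 1.27 CPM in adapted pd1245 on LP, a log2 difference of -0.68 ± 0.30 (SE, adjusted p = 0.386), of the opposite sign to experiment 1, and of -0.53 ± 0.32 (SE, adjusted p = 0.606) without replicate 2 of EK on LP. The remaining conjugation genes were not called: ATG3 had a log2 difference of -0.23 ± 0.09 (SE, adjusted p = 0.0698) between diets in pd1245, which passed without replicate 3 at -0.30 ± 0.08 (SE, adjusted p = 0.0229), and ATG12, which is joined to ATG5, one of 0.37 ± 0.19 (SE, adjusted p = 0.68) in EK.

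ATG4 proteases trim LC3 and GABARAP proteins before conjugation and release them from membranes afterwards. ATG4C was the 1 member that fell in experiment 1. EK libraries of experiment 1 held 16.8, 15.5 and 15.9 CPM of ATG4C on HP and 16.6, 18.9 and 18.04 CPM on LP. In pd1116 it was at 16.96, 16.3 and 17.99 CPM on HP and at 18.2, 19.9 and 16.5 CPM on LP. In pd1245 it was at 16.1, 16 and 18.5 CPM on HP and at 13.2, 13.8 and 13.9 CPM on LP. All pd1245 libraries on LP were below all other libraries of the experiment. It fell on LP in pd1245, with a log2 change of -0.31 ± 0.10 (SE, adjusted p = 0.0326), and was lower there than in EK, with a log2 difference of -0.39 ± 0.10 (SE, adjusted p = 0.00537), and than in pd1116, with one of -0.41 ± 0.10 (SE, adjusted p = 0.00701). Without replicate 3 these were -0.32, -0.41 and -0.43, all still called. In experiment 2 its LP levels were 6.00, 7.66, 6.15 and 6.00 CPM in EK and 5.09, 5.36, 4.91 and 5.26 CPM in adapted pd1245, a log2 difference of -0.32 ± 0.16 (SE, adjusted p = 0.468), or -0.23 ± 0.16 (SE, adjusted p = 0.715) without replicate 2 of EK on LP. ATG4A, ATG4B, ATG4D and atg4db were not called in any comparison; for ATG4A in adapted pd1245 against EK on HP the log2 difference was -1.01 ± 0.26 (SE, adjusted p = 0.059), with libraries at 3.24, 2.84 and 2.80 CPM against 4.88, 6.46 and 6.67 CPM.

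The initiation complex joins the kinase ULK1 to ATG13, ATG101 and the scaffold RB1CC1. ulk1a was called in pd1245 and ATG13 in adapted pd1245. On HP the EK libraries of experiment 1 had ulk1a at 21.8, 23.9 and 18.7 CPM, and on LP at 20.6, 16.6 and 16.7 CPM. The pd1116 values were 15.2, 19.1 and 19.01 CPM on HP and 16.8, 22.7 and 22.4 CPM on LP. The pd1245 values were 17.7, 21.7 and 17.8 CPM on HP and 22.04, 26.2 and 29.2 CPM on LP. The pd1245 libraries on LP were above those on HP and above all EK libraries on LP. ulk1a rose on LP in pd1245 by 0.44 ± 0.14 (SE, adjusted p = 0.0418) and was higher than in EK on LP by 0.52 ± 0.15 (SE, adjusted p = 0.0111). Without replicate 3 the diet change was 0.34 and no longer passed (adjusted p = 0.137), and the difference from EK was 0.42 (adjusted p = 0.0406). The gene listed as ULK1 stood at 32.2, 27.98 and 24.2 CPM in pd1245 on LP and 33.5, 32.8 and 35.2 CPM in EK on LP, a log2 difference of -0.26 ± 0.11 (SE, adjusted p = 0.0806), of the opposite sign, and of -0.17 ± 0.11 (SE, adjusted p = 0.251) without replicate 3.

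In experiment 2, EK libraries held 32.3, 37.6 and 27.8 CPM of ATG13 on HP and 37.3, 46.9, 33.5 and 35.2 CPM on LP. Adapted pd1245 libraries held 28.6, 30.4 and 24.99 CPM on HP and 36.8, 47.5, 42.2 and 42.5 CPM on LP. In adapted pd1245 the diets did not overlap, and the EK groups did. ATG13 rose on LP in adapted pd1245 by 0.59 ± 0.15 (SE, adjusted p = 0.0445), while in EK the log2 difference was 0.24 ± 0.15 (SE, adjusted p = 0.547), or 0.13 ± 0.14 (SE, adjusted p = 0.851) without replicate 2 on LP. In experiment 1 its difference in pd1245 was 0.30 ± 0.10 (SE, adjusted p = 0.0505), or 0.16 ± 0.09 (SE, adjusted p = 0.235) without replicate 3 on LP, with libraries at 45.6, 55.95 and 50.04 CPM on HP and 56.4, 56.9 and 73.1 CPM on LP. ATG101 and RB1CC1 were called in no comparison: ATG101 had a log2 difference of 0.56 ± 0.17 (SE, adjusted p = 0.201) between diets in EK of experiment 2, or 0.42 ± 0.16 (SE, adjusted p = 0.486) without replicate 2 on LP, and RB1CC1 one of 0.65 ± 0.40 (SE, adjusted p = 0.385) in adapted pd1245.

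The class III lipid kinase complex comprises the kinase PIK3C3, its regulator PIK3R4 and BECN1, with ATG14 or UVRAG. In experiment 1, 0 of these 5 members were called, and their log2 differences between diets stayed between -0.09 and 0.21 in all lines. In experiment 2 the change lay in ATG14, which directs the complex to the forming autophagosome. EK libraries of experiment 2 had ATG14 at 3.36, 4.16 and 4.75 CPM on HP and at 5.43, 6.16, 3.93 and 2.82 CPM on LP. In adapted pd1245 it was at 1.24, 2.31 and 1.75 CPM on HP and at 3.49, 4.86, 4.15 and 5.09 CPM on LP. Adapted pd1245 libraries on HP were the lowest of the experiment, and those on LP lay in the range of EK. ATG14 rose on LP in adapted pd1245 2.47-fold, a log2 change of 1.30 ± 0.28 (SE, adjusted p = 0.0247). That call was lost in 5 of 19 alternatives, with an adjusted p of up to 0.164, and ATG14 had only 13 to 78 counts in a library of experiment 2. Its HP difference from EK was -1.20 ± 0.31 (SE, adjusted p = 0.067), and the difference between the diet effects of the lines was 1.13 ± 0.39 (SE, adjusted p = 0.857), or 1.31 ± 0.38 (SE, adjusted p = 0.485) without replicate 2 of EK on LP. In experiment 1 its log2 difference between diets in pd1245 was 0.14 ± 0.11 (SE, adjusted p = 0.393), or 0.01 ± 0.10 (SE, adjusted p = 0.945) without replicate 3 on LP.

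PIK3R4 was the 1 member that differed between the lines on HP in experiment 2. PIK3R4 in EK of experiment 2 was at 12.3, 15.2 and 9.69 CPM on HP and 9.04, 11.1, 8.46 and 9.97 CPM on LP. The adapted pd1245 values were 5.34, 6.92 and 7.51 CPM on HP and 7.37, 8.90, 6.22 and 7.46 CPM on LP. On HP every adapted pd1245 library was below every EK library, and the highest EK value came from the shallowest library. PIK3R4 was lower in adapted pd1245 on HP by a log2 difference of -0.88 ± 0.20 (SE, adjusted p = 0.0289). Without replicate 2 of EK on HP, the shallow library, that was -0.74 (adjusted p = 0.0855) and did not pass. On LP the difference was -0.36 ± 0.17 (SE, adjusted p = 0.42), or -0.29 ± 0.18 (SE, adjusted p = 0.627) without replicate 2 of EK on LP, and in experiment 1 that of pd1245 on HP was 0.06 ± 0.10 (SE, adjusted p = 0.818).

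Membrane for the growing autophagosome comes through the vesicle proteins ATG9A and atg9b and the lipid transporters ATG2A and atg2b, with WIPI1 and WIPI2 as their anchors on the marked membrane. All 6 genes had log2 differences above 0 between LP and HP in pd1116, pd1245 and adapted pd1245, and in EK 0 of 6 were in experiment 1, where they ranged from -0.11 to -0.02, and 5 of 6 in experiment 2, with a median of 0.293. Without replicate 2 of EK on LP the last was 4 of 6, with a median of 0.143. In adapted pd1245 they ranged from 0.46 to 0.94, with a median of 0.88 beside 0.01 over all genes, and 0 of 6 were called. Against EK on HP, 1 of 6 was above 0 in adapted pd1245, with a median of -0.55. Against EK on LP, 3 of 6 were above 0, with a median of -0.006 (5 of 6 and 0.223 without replicate 2 of EK on LP). With all libraries used, the median of adapted pd1245 was below EK on HP and near EK on LP. The HP median leans on replicate 2 of EK on HP, the shallowest library, and is not given without it. That library was the highest of its group for ATG9A (14.3 CPM, against 6.92 and 6.30 CPM), WIPI1 (15.5, against 10.5 and 8.68 CPM) and atg9b. For ATG2A, atg2b and WIPI2 it was not the highest. ATG2A, atg2b and WIPI2 had few reads in experiment 2, with means of 0.93, 0.89 and 1.4 CPM. In EK of experiment 1, atg9b stood at 56.3, 59.8 and 51.4 CPM on HP and 57.4, 48.6 and 52.5 CPM on LP. Its pd1116 libraries held 51.4, 46.7 and 46.7 CPM on HP and 52.5, 69.3 and 61.8 CPM on LP. Those of pd1245 held 52.4, 64.9 and 49.2 CPM on HP and 61.4, 94.5 and 92.3 CPM on LP. In EK the diets overlapped, in pd1116 they did not, and in pd1245 replicate 1 on LP lay within the HP range. atg9b rose on LP in pd1245 by 0.58 ± 0.14 (SE, adjusted p = 0.0118), and in pd1116 its log2 difference was 0.34 ± 0.14 (SE, adjusted p = 0.164). On LP it was higher in pd1245 than in EK by 0.65 ± 0.14 (SE, adjusted p = 0.00278) and than in pd1116 by 0.43 ± 0.14 (SE, adjusted p = 0.0408). Without replicate 3 its values in pd1245 against HP and against EK were 0.49 and 0.56, both called, and that against pd1116 was 0.35 (adjusted p = 0.138).

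In experiment 2, EK libraries held 18.5, 27.2 and 16.7 CPM of atg9b on HP and 21.9, 43.3, 23.6 and 26.7 CPM on LP. Adapted pd1245 libraries held 12.97, 18.5 and 9.87 CPM on HP and 22.2, 29.01, 22.1 and 32.2 CPM on LP. All adapted pd1245 libraries on LP exceeded those on HP, with a log2 difference of 0.94 ± 0.25 (SE, adjusted p = 0.0599). ATG9A, the other vesicle protein, stood at 41.1, 39.3 and 41.01 CPM in EK on LP and 45.5, 49.3 and 57.8 CPM in pd1245 on LP of experiment 1. It was higher in pd1245 by 0.33 ± 0.11 (SE, adjusted p = 0.0313), which without replicate 3 was 0.22 (adjusted p = 0.133). In experiment 2 ATG9A held 3.91, 6.21 and 5.50 CPM in adapted pd1245 on HP and 9.80, 11.04, 8.19 and 9.92 CPM on LP, a log2 difference of 0.90 ± 0.26 (SE, adjusted p = 0.0716). ATG2A in pd1116 stood at 39.2, 40.02 and 40.8 CPM on HP and 51.5, 56.5 and 51.5 CPM on LP, without overlap, and its log2 difference was 0.41 ± 0.14 (SE, adjusted p = 0.0792).

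**Figure D3:**
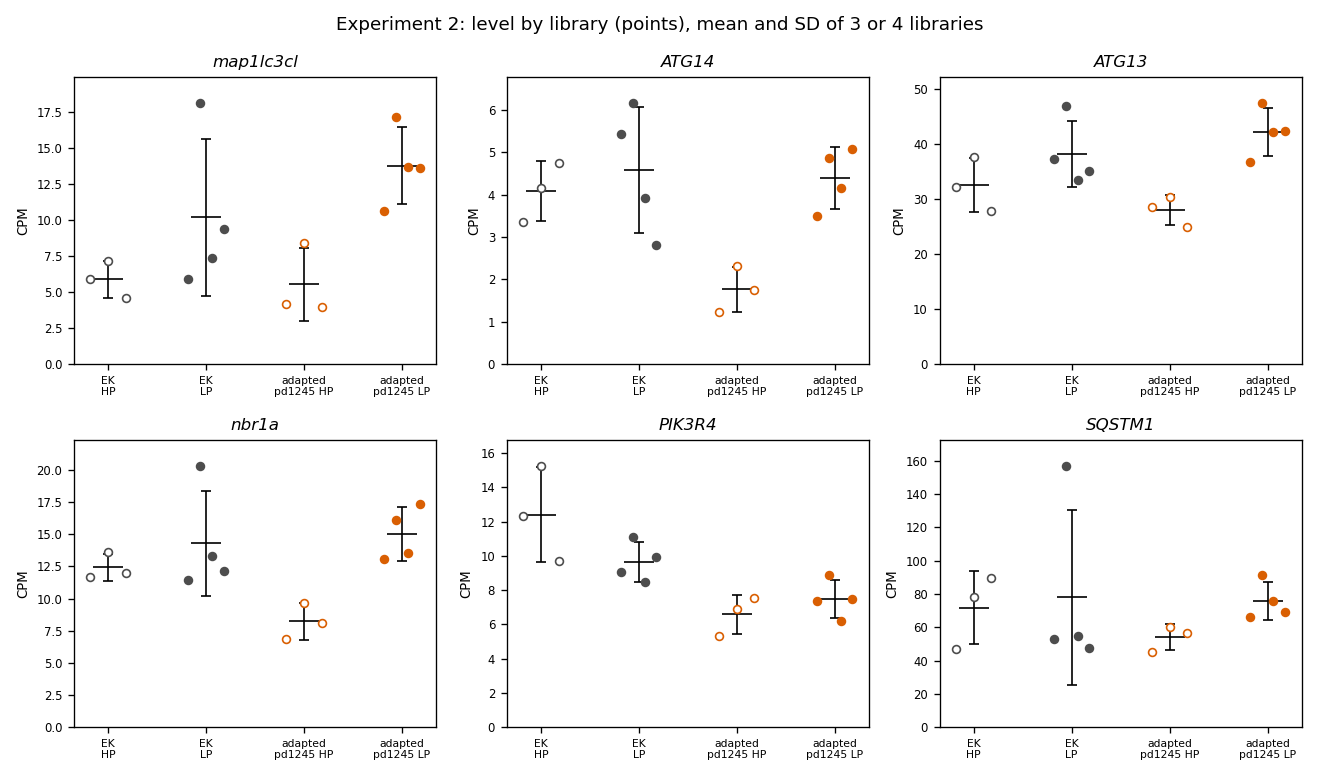
Level in CPM of 6 members in each library of experiment 2; open points are HP, filled points LP, and bars the mean and SD of 3 or 4 libraries. ATG14, ATG13, nbr1a and map1lc3cl do not overlap between diets in adapted pd1245, and 1 EK library on LP is far above its group for SQSTM1.

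Among the cargo receptors, BNIP3 is a mitochondrial outer membrane protein that binds LC3 and marks mitochondria for removal. EK libraries of experiment 1 held 14.1, 10.8 and 11.9 CPM of BNIP3 on HP and 13.8, 10.96 and 12.6 CPM on LP. In pd1116 it was at 12.96, 13 and 11.5 CPM on HP and at 12.8, 16 and 15.2 CPM on LP. In pd1245 it was at 10.8, 13.9 and 12.1 CPM on HP and at 16.7, 23.04 and 21.8 CPM on LP. All pd1245 libraries on LP lay above all other libraries of experiment 1. BNIP3 rose on LP in pd1245 1.68-fold, a log2 change of 0.74 ± 0.14 (SE, adjusted p = 0.00259), and was higher there than in EK by 0.72 ± 0.14 (SE, adjusted p = 0.00103) and than in pd1116 by 0.48 ± 0.14 (SE, adjusted p = 0.0211). Without replicate 3 these were 0.70, 0.67 and 0.44, and the last no longer passed (adjusted p = 0.0561). In EK its log2 difference between diets was 0.02 ± 0.14 (SE, adjusted p = 0.993), and in pd1116 0.23 ± 0.14 (SE, adjusted p = 0.345). In experiment 2 BNIP3 had 0.474 CPM at most and was not tested.

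The 2 genes listed as BNIP3L, a related receptor known for clearing mitochondria from maturing red blood cells in mammals, are given by their identifiers. The one with the identifier ENSDARG00000028067 held 71.6, 80.96 and 77.1 CPM in EK on HP and 70.4, 62.2 and 61.3 CPM on LP, and in pd1245 50.9, 64.7 and 57.9 CPM on HP and 64.1, 73.6 and 77.9 CPM on LP. It rose on LP in pd1245 by 0.31 ± 0.10 (SE, adjusted p = 0.0425) and was lower than in EK on HP, with a log2 difference of -0.40 ± 0.10 (SE, adjusted p = 0.0323). The first call was lost in 14 of 23 alternatives, among them without replicate 3 of pd1245 on LP, at 0.25 ± 0.10 (SE, adjusted p = 0.126), and the second in 5 of 23. ENSDARG00000025468 stood at 36.05, 37.7 and 38.05 CPM in pd1116 on HP and 47.9, 48.5 and 48.1 CPM on LP, a log2 difference of 0.37 ± 0.13 (SE, adjusted p = 0.0874); it was called in no comparison.

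nbr1a encodes a homolog of NBR1, a receptor for ubiquitinated cargo that works with SQSTM1. On HP the EK libraries of experiment 1 had nbr1a at 49.97, 54.6 and 58.9 CPM, and on LP at 55.3, 55.1 and 56.9 CPM. The pd1116 values were 62.5, 65.2 and 66.5 CPM on HP and 70.9, 80.8 and 74.9 CPM on LP. The pd1245 values were 52.03, 59.2 and 49.1 CPM on HP and 56.8, 62.7 and 80.8 CPM on LP. pd1116 was above EK in all libraries on both diets. Against EK it was higher in pd1116 on LP by 0.44 ± 0.11 (SE, adjusted p = 0.0214), and on HP its log2 difference was 0.25 ± 0.11 (SE, adjusted p = 0.324). Between diets in pd1245 its log2 difference was 0.32 ± 0.11 (SE, adjusted p = 0.0509), or 0.16 ± 0.09 (SE, adjusted p = 0.261) without replicate 3, the highest library. EK libraries of experiment 2 had nbr1a at 11.7, 13.6 and 11.97 CPM on HP and at 11.4, 20.3, 13.3 and 12.2 CPM on LP. In adapted pd1245 it was at 6.86, 9.67 and 8.13 CPM on HP and at 13.1, 16.1, 13.5 and 17.4 CPM on LP. Diets did not overlap in adapted pd1245, whose HP libraries were all below EK. nbr1a rose on LP in adapted pd1245 by 0.87 ± 0.20 (SE, adjusted p = 0.0289), and in EK the log2 difference was 0.22 ± 0.20 (SE, adjusted p = 0.709), or -0.00 ± 0.17 (SE, adjusted p = 0.998) without replicate 2 on LP.

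SQSTM1, whose protein p62 is the best known receptor and is itself degraded by autophagy, was called in no comparison. In experiment 1 it held 25.8, 34.3 and 30.96 CPM in pd1245 on HP and 32.99, 27.6 and 51.95 CPM on LP, and in experiment 2 53.03, 157, 54.9 and 47.3 CPM in EK on LP. In both, a single library was far above its group. nbr1b and OPTN, a receptor for ubiquitinated mitochondria and bacteria, were not called, and OPTN stayed between 28.3 and 45.6 CPM across experiment 1. Of the transcription factors of lysosomal and autophagy genes, TFEB had log2 differences between diets of 0.14 ± 0.11 (SE, adjusted p = 0.479) in pd1116 and 0.14 ± 0.11 (SE, adjusted p = 0.394) in pd1245, and tfe3b of 0.26 ± 0.20 (SE, adjusted p = 0.493) and -0.10 ± 0.20 (SE, adjusted p = 0.778). Without the outlying library the pd1245 values were 0.21 ± 0.11 (SE, adjusted p = 0.223) for TFEB and 0.20 ± 0.11 (SE, adjusted p = 0.274) for tfe3b. tfe3b was at 7.51 CPM in the outlying pd1245 library and at 11.1 to 18.8 CPM in the other 17.

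The gene listed as TFE3, which is no member by symbol, was called. It stood at 12.4, 9.88 and 12.7 CPM in EK on HP and 10.6, 9.70 and 9.65 CPM on LP. In pd1116 it held 10.5, 11.2 and 9.03 CPM on HP and 13.4, 14.6 and 15.7 CPM on LP, without overlap. TFE3 rose on LP in pd1116 by 0.51 ± 0.13 (SE, adjusted p = 0.0234), and on LP was higher than in EK by 0.54 ± 0.13 (SE, adjusted p = 0.0146) in pd1116 and by 0.52 ± 0.13 (SE, adjusted p = 0.0058) in pd1245. The diet call was lost without replicate 1 or 3 of pd1116 on HP or replicate 2 or 3 on LP, with an adjusted p of up to 0.128. That against EK in pd1116 was lost without replicate 2 or 3 of EK on LP or replicate 3 of pd1116 on LP, and that in pd1245 with only the groups compared in the fit. The difference between the diet effects of pd1116 and EK was 0.73 ± 0.18 (SE, adjusted p = 0.174) and did not pass.

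Whether a diet effect differed between a pllp line and EK was tested as the difference of the 2 effects. For pd1116, 0 members were called (0.0044% of all genes), 4 had an unadjusted p under 0.05, and DESeq2 called 0. For pd1245 in experiment 1, 1 was called (5.7% of all genes, 2.3% higher and 3.4% lower): the LP effect on BNIP3 was larger by 0.72 ± 0.20 (SE, adjusted p = 0.0415) on the log2 scale. ulk1a, ATG4C and atg9b came close, at 0.69 ± 0.21 (SE, adjusted p = 0.0524), -0.46 ± 0.13 (SE, adjusted p = 0.0505) and 0.66 ± 0.20 (SE, adjusted p = 0.0624). The BNIP3 call was lost in 15 of 23 alternatives, and without replicate 3 of pd1245 on LP the called members were ATG3 and ATG4C, both with a lower effect, in its place. Without that replicate the values of ulk1a and atg9b were 0.59 ± 0.20 (SE, adjusted p = 0.0832) and 0.56 ± 0.20 (SE, adjusted p = 0.101). For map1lc3cl and ATG7 the differences from EK were 0.39 ± 0.22 (SE, adjusted p = 0.281) and 0.30 ± 0.13 (SE, adjusted p = 0.168) in pd1245 (0.26 ± 0.21 and 0.28 ± 0.13 without it), and 0.57 ± 0.22 (SE, adjusted p = 0.322) and 0.43 ± 0.13 (SE, adjusted p = 0.223) in pd1116. A rise that passed in a pllp line and not in EK was therefore, for these genes, not shown to differ from EK. In experiment 2, 0 members were called by edgeR or DESeq2 (0% of all genes in edgeR), and 4 had an unadjusted p under 0.05. Of the 36, 30 had a larger effect in adapted pd1245, with or without replicate 2 of EK on LP. The share of all genes with a larger effect is not given, and the members were measured in the same libraries. The count of 30 is therefore not a test of the members.

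Marker genes of several cell types moved with the same groups in experiment 1. Summed levels of 8 genes of lysosome-rich enterocytes, gut cells that take up and digest protein in lysosomes, spanned 2235 to 2868 CPM on LP in EK, 1092 to 1706 CPM for pd1116 and 759 to 1139 CPM for pd1245. The HP ranges were 2594 to 3218 CPM, 2779 to 3310 CPM and 1541 to 2623 CPM. Of these markers, 1 of 8 fell on LP in EK, 4 of 8 in pd1116 and 6 of 8 in pd1245, and 7 of 8 were lower in pd1245 than in EK on LP. Hepatocyte markers (6 genes) summed to 6112 to 6789 CPM in EK on LP and 2837 to 3123 CPM in pd1245 on LP, and 3 of 6 were lower. Red blood cell markers (6 genes, 5 of them tested) summed to 707 to 719 CPM and 318 to 370 CPM in those groups, and 5 of 5 were lower. On HP, hepatocyte markers summed to 5303 to 5616 CPM in EK and 3034 to 5887 CPM in pd1245. Red blood cell markers on HP summed to 691 to 842 CPM in EK and 442 to 665 CPM in pd1245, so they were lower in pd1245 on that diet too. No marker of these 3 types was at 0 throughout, and in experiment 2, 0 of 8, 0 of 6 and 0 of 5 of them were called in any comparison. Markers of other types were also lower in pd1245 on LP than on HP or in EK on LP. Anterior enterocyte markers (7 genes) summed to 1274 to 1515 CPM there, against 1735 to 2313 CPM and 2239 to 2528 CPM. Keratinocyte markers (5 genes) summed to 9662 to 10400 CPM, against 12080 to 13700 CPM and 11920 to 12920 CPM. Oligodendrocyte markers (3 genes) summed to 111 to 129 CPM, against 158 to 173 CPM and 163 to 202 CPM (242 to 311 CPM in EK on HP). Fast muscle and neuron markers moved otherwise. Fast muscle markers (6 genes) summed to 8031 to 10260 CPM in pd1245 on HP and 10290 to 14900 CPM on LP, where 1 of 6 rose, while in EK they were at 12620 to 14990 CPM on HP and 9435 to 10670 CPM on LP. Neuron markers (8 genes) summed to 1136 to 1156 CPM in EK on LP and 1218 to 1719 CPM in pd1245 on LP, where 3 of 8 were higher and 2 of 8 lower. For both types the highest value in pd1245 on LP came from replicate 3, the outlying library. Replicates 1 and 2 were at 10290 and 10840 CPM for fast muscle and at 1218 and 1271 CPM for neurons. The part of cell composition in the levels of the members was not tested.

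The diet calls in pd1245 depended on the libraries and on the fit. In experiment 1 the count of 7 became 6 without replicate 3 on LP, 13 without replicate 1 on LP and 4 without replicate 1 on HP. It became 1 (BNIP3) without replicate 3 on HP, and 0 when only these 2 groups were fitted. In that last fit the other gene lists described below also fell to 0, and pllp lost its edgeR call (adjusted p = 0.149). The loss was thus not particular to the members. Shares of all genes under these settings are not given. In experiment 2 the count of 4 became 0 without replicate 1 or 3 of adapted pd1245 on HP or replicate 2, 3 or 4 on LP, and 7 without replicate 2 of either EK group. Against EK on LP, map1lc3cl, ATG7, BNIP3, atg9b, ATG10 and ATG4C in pd1245 held under all 23 alternatives. The 2 calls of pd1116 against EK on LP were lost without replicate 1 or 3 of EK on LP or replicate 3 of pd1116 on LP, and the count was 5 without the outlying pd1245 library.

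Genes that work beside the core machinery were taken from 4 lists. In EK, 0 genes of any list were called between diets in either experiment by edgeR, and DESeq2 called 1 nutrient sensing gene in each; 1 to 3 genes a list in experiment 1 and 3 or 4 in experiment 2 had an unadjusted p under 0.05. Of 35 other autophagy factors and receptors, 4 rose and 0 fell on LP in pd1116 (11.4%, beside 6.79% of all genes). They were TECPR1, which links autophagosomes to lysosomes (0.66 ± 0.13, log2 change ± SE), CALCOCO1, a receptor for endoplasmic reticulum (ENSDARG00000016391, 1.92 ± 0.47), retreg1, another such receptor (1.48 ± 0.38), and TBK1, a kinase that phosphorylates receptors (0.33 ± 0.10). In pd1245, 10 rose and 2 fell (34.3%, beside 19.1%), among them TECPR1 (0.85 ± 0.12), CALCOCO1 (2.20 ± 0.43), the ULK1 relative ULK2 (0.77 ± 0.14) and VMP1, an endoplasmic reticulum protein of early autophagosomes (-0.69 ± 0.11). In adapted pd1245, 3 of 24 tested rose and 0 fell (12.5%, beside 1.88%): ULK2 (1.06 ± 0.15), CALCOCO1 (2.72 ± 0.47) and retreg1 (2.26 ± 0.49). Against EK on LP, 10 were higher and 2 lower in pd1245 (34.3%, beside 31.8% of all genes), and 0 higher and 1 lower in pd1116 (2.86%, beside 6.68%), VMP1 (-0.49 ± 0.11). The count of 12 between diets in pd1245 was 7 without its replicate 3 on HP and 0 with only the 2 groups fitted. The count in pd1116 was 10 without the outlying pd1245 library and 1 without replicate 1 of pd1116 on HP; that in adapted pd1245 was 1 without its replicate 1 on HP and 5 without replicate 2 of EK on HP.

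Of 44 genes of upstream nutrient sensing, the pathways around the kinases mTOR and AMPK that set autophagy, 3 rose on LP in pd1116 (6.82%, beside 6.79% of all genes): TSC2 (0.53 ± 0.14), TSC1 (ENSDARG00000057918, 0.42 ± 0.12) and akt1s1 (0.37 ± 0.10).  In pd1245, 14 rose and 3 fell (38.6%, beside 19.1%). Among the rises were FOXO1, a transcription factor held back by insulin signalling (ENSDARG00000099555, 0.56 ± 0.10), TRIB3, a pseudokinase induced by amino acid shortage (1.12 ± 0.20), TSC2 (0.71 ± 0.14) and akt1s1 (0.51 ± 0.10). The 3 that fell, named after their values were seen, were DEPTOR (-0.43 ± 0.14) and sesn3 (-0.36 ± 0.11), of which the proteins, like those of TSC1, TSC2 and akt1s1, restrain mTOR complex 1, and SLC38A9, a lysosomal amino acid sensor (-0.54 ± 0.16). In adapted pd1245, 5 of 35 tested rose (14.3%, beside 1.88%), among them SESN1, a leucine-linked inhibitor of mTOR complex 1 (1.45 ± 0.24), and FLCN, which acts on Rag proteins at the lysosome (1.05 ± 0.20). Against EK on LP, 18 were higher and 5 lower in pd1245 (52.3%, beside 31.8% of all genes) and 4 higher in pd1116 (9.09%, beside 6.68%). The pd1245 diet count of 17 was 5 without replicate 3 on HP and 0 with only the 2 groups fitted. The pd1116 diet count of 3 was 0 without its replicate 1 on HP and 12 without the outlying pd1245 library, and the count of 5 in adapted pd1245 was 1 without its replicate 1 on HP.

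The last 2 lists cover the later steps. Of 26 genes of fusion between autophagosome and lysosome, 2 rose and 4 fell on LP in pd1245 (23.1%, beside 19.1% of all genes). A pair of genes listed as RAB7A, a small GTPase of late endosomes, changed in opposite directions: ENSDARG00000020497 rose (0.38 ± 0.10) and ENSDARG00000021287 fell (-0.52 ± 0.12). YKT6, a fusion SNARE, also fell (-0.46 ± 0.11). In pd1116, 2 rose (7.69%, beside 6.79%), the endosomal ATPase VPS4A (0.33 ± 0.09) and the tethering subunit VPS39 (0.30 ± 0.09). Of 40 genes of lysosomal membrane and acidification, 1 rose and 7 fell on LP in pd1116 (20%, beside 6.79%), and 2 rose and 4 fell in pd1245 (15%, beside 19.1%). LAMP1, a glycoprotein of the lysosomal membrane, rose in both (0.51 ± 0.11 and 0.46 ± 0.11). The gene ENSDARG00000090912, listed as NPC2, a carrier of cholesterol out of lysosomes, fell in both (-0.50 ± 0.13 and -0.49 ± 0.13). Against EK on LP, 4 were higher and 10 lower in pd1245 (35%, beside 31.8%). In adapted pd1245 of experiment 2, 0 of 24 and 0 of 39 genes of these lists were called between diets; 5 and 3 had an unadjusted p under 0.05, and DESeq2 called 0 and 1. Summed markers of lysosome-rich enterocytes were low on LP in pd1116 and pd1245 of experiment 1. In adapted pd1245 they spanned 1204 to 1803 CPM on LP and 1067 to 1421 CPM on HP. Whether these markers and the lysosomal genes are linked was not tested. In pd1116 the fusion count of 2 became 0 and the lysosomal count of 8 became 1 without replicate 1 on HP, and they were 1 and 4 with the replicate block. The fusion count was also 0 without the filter on low counts. Without replicate 3 on HP they were 0 and 1. In pd1245 the fusion count of 6 became 0 and the lysosomal count of 6 became 1 without replicate 3 on HP, and both were 0 with only the groups compared.

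**Figure D4:**
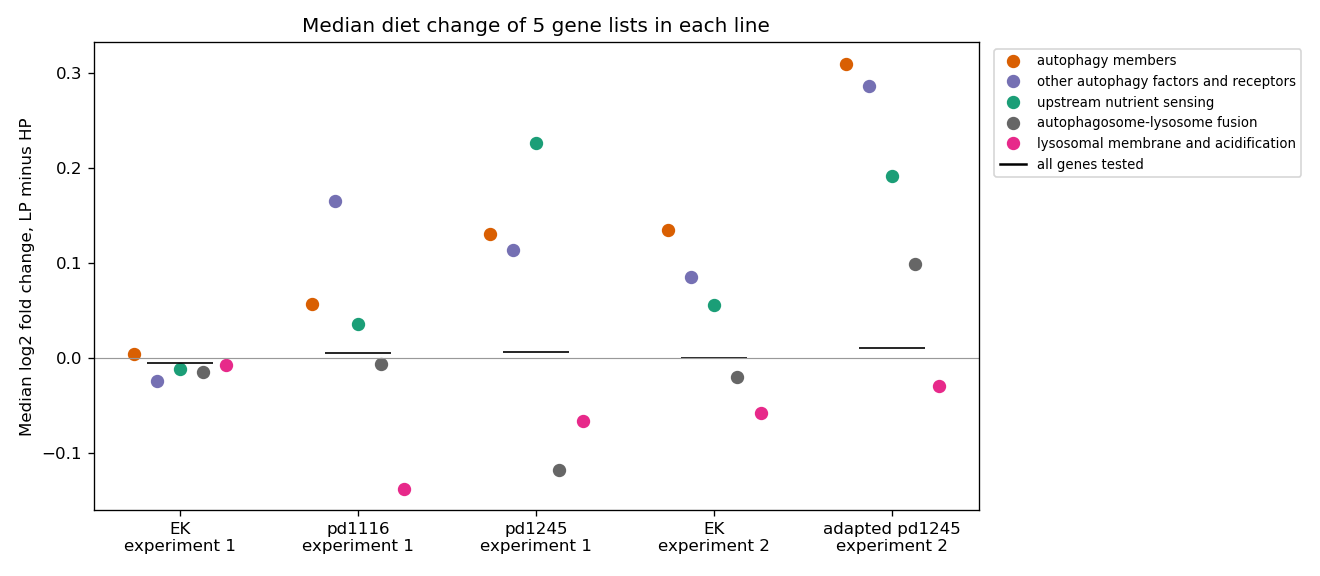
Median log2 fold change between LP and HP of the members and of 4 other gene lists in each line and experiment; black bars are the median over all genes tested. The members' median is 0.004 in EK, 0.057 in pd1116 and 0.131 in pd1245 of experiment 1, and 0.135 in EK and 0.31 in adapted pd1245 of experiment 2, while that of the lysosomal list is below 0 in all 5.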

How the data were processed

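Poly(A) RNA of whole larvae was sequenced in 32 libraries. In experiment 1 the deposited values are raw counts per gene and library, made by the authors with Trim Galore 0.6.5, STAR 2.7.3a and HTSeq 0.11.1 on GRCz11, per the submitters' processing notes. In experiment 2 the deposited values are estimated counts, partly fractional, made by the authors with fastp 0.24.0, STAR 2.7.11 and featureCounts of Subread 2.1.1, per the same notes; they were rounded. The authors also deposited CPM for experiment 2, per the file headers, which were not used. The annotation release, the strand setting and the use of molecular identifiers are not given in the sources used here, so overlapping and near-identical genes are uncertain.

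Rows that name no gene (14.6 to 16.8% of counts in experiment 1) and 92 spike-ins were left out. Each experiment was fitted on its own with edgeR 4.0.16 in R 4.3.3: TMM scaling, filterByExpr, 1 coefficient per group, glmQLFit and glmQLFTest, two-sided. Of all genes, 22742 and 16671 were tested. Adjusted p-values are Benjamini-Hochberg values over all genes tested, with a threshold of 0.05. The SE is the log2 fold change divided by the root of the F statistic, and intervals are 1.96 SE either way. CPM printed here were computed from the counts with scaled library sizes, without correction for transcript length. Levels are therefore not compared between genes, nor between experiments except for the members that failed the filter.

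Alternatives were RLE size factors, no filter on low counts, DESeq2 1.42.0, a fit with only the compared groups, a block for the replicate number, and leaving out each library. Same-numbered libraries did not deviate together, so the numbers were not taken as pairs. The members, lists and markers were chosen with earlier results of these data known. The genes named are pllp, members called in at least 1 comparison, those with the most reads or that failed the filter, and up to 4 called genes of each other list by smallest p. Further members were named after their values were seen. The fit was tested on simulated data with changes planted in pd1245 against EK on LP. In experiment 1 it recovered 84% of log2 changes of 1 and 29% of those of 0.5, with 3 false calls. In experiment 2 it recovered 77% and 8%, with 7 false calls. Changes were planted only in genes above a minimum mean count, so these shares do not cover members with few reads. Only 100 genes of each size were changed, among 22562 in experiment 1, while 31.8% of all genes were called in the data. The unadjusted p needed for a call was thus stricter in that simulation, and its shares do not give the power in the data. A member that was not called is still not shown to be unchanged. No sequence is shown.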

Additional observations from a re-analysis of the deposited data

Results flagged for a closer look

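In experiment 2, 80 sets of 4 values, those of the members and related genes in EK on LP and in adapted pd1245 on LP, were searched for a library far from the other 3. The search picked out 6, and chance picks out about 1 in 20. Replicate 2 of EK on LP accounted for 4 of them: SQSTM1 was at 156.8 CPM there and at 47.28 to 54.91 CPM in the others, and MAP1LC3A at 71.55 CPM, with 43.57 to 47.85 CPM in the others. In the same library ATG101 was at 25.98 CPM (18.17 to 19.14 CPM in the others) and ATG4C at 7.66 CPM (5.998 to 6.146 CPM). Replicate 1 of EK on LP was low for ATG5, at 11.51 CPM with 13.5 to 13.9 CPM in the others. Replicate 4 of adapted pd1245 on LP was high for ATG101, at 23.75 CPM with 19.9 to 20.19 CPM in the others.

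In experiment 1 the effect of diet differed between pd1245 and EK, by the test of the difference itself, for 3 genes among the members, related genes and pllp. Of all genes, 5.7% were called by that test. The difference was 0.7204 on the log2 scale for BNIP3 (edgeR, adjusted p = 0.0415), 0.5569 for the BNIP3L gene ENSDARG00000028067 (adjusted p = 0.0344) and -1.1064 for pllp (adjusted p = 0.0145). The BNIP3 call was lost in 15 of 23 alternatives and the BNIP3L call in 8 of 23, with an adjusted p of up to 0.0978. Genes of the other lists were also called by this edgeR test. Of nutrient sensing these were FOXO1 (ENSDARG00000099555, 1.0138, adjusted p = 0.00426), TRIB3 (1.3491, adjusted p = 0.0131) and TSC1 (ENSDARG00000057918, 0.6131, adjusted p = 0.0481). Of fusion they were PLEKHM1 (0.4927, adjusted p = 0.0171) and RAB7A (ENSDARG00000020497, 0.488, adjusted p = 0.0487).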

How the results depend on the processing

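Counts of members called moved by over 1.5 times under these settings, and the cause was not tested. Shares of all genes called under the same settings are not given, here or for the libraries left out below. A move in a count is therefore not shown to be particular to the members. With only the groups compared in the fit, which has fewer libraries to estimate the spread, experiment 1 gave 4 between diets in pd1116 (2 in the fit of all groups), 0 in pd1245 (7), 5 for pd1116 against EK on LP (2), 0 for pd1245 against pd1116 on LP (5) and 0 for the difference of diet effects in pd1245 (1). In experiment 2 it gave 9 between diets in adapted pd1245 (4) and 0 against EK on HP (1). Without the filter, pd1245 against EK on HP gave 1 (0) and pd1245 against pd1116 on HP 1 (2), and adapted pd1245 gave 7 between diets and 3 against EK on HP. DESeq2 gave 1 for pd1245 against EK on HP, 4 for its difference of diet effects, 8 between diets in adapted pd1245 and 3 against EK on HP. RLE size factors gave 1 for pd1245 against pd1116 on HP and 2 for the difference of diet effects. With the replicate block these were 1 and 0, and adapted pd1245 gave 7 between diets. Same-numbered libraries did not pair: in 0 of 15 and 0 of 6 pairs of groups were all correlations over 0.1, they ranged from -0.263 to 0.232 and from -0.152 to 0.209, and every library correlated best with its own number in 1 of 15 and 0 of 6. Counting the 4 genes listed as ULK1, TFE3 and BNIP3L, an alternative chosen after seeing the data, gave 1 for pd1245 against EK on HP and 2 for its difference of diet effects.

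Leaving out 1 library gave 2 to 3 between diets in pd1116, 1 to 13 in pd1245 and 0 to 7 in adapted pd1245. Against EK on LP it gave 0 to 5 in pd1116 and 6 to 12 in pd1245, and on HP 0 to 1 in pd1245 and 0 to 3 in adapted pd1245. Between the alleles it gave 1 to 5 on HP and 3 to 9 on LP, and for the difference of diet effects in pd1245 0 to 4. The 46 results for single genes followed here were all called in the fit of all groups, so a change of sign was unlikely from the start. Among them 0 changed sign under any setting, and 174 of 1030 values lost their call. RLE scaling moved the median of all genes by 0.0118 at most. Libraries of experiment 2 are shallower, with 3713048 to 12929536 counts against 19838912 to 29147958. The 2 experiments also used different library kits and pipelines. The 5 members that failed the filter of experiment 2 averaged 0.0739 to 0.537 CPM there and 1.46 to 20.5 CPM in experiment 1. CPM are already scaled to depth. Why these levels differ was not tested.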
